A study of Mus musculus with 9 samples.

Results

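The genes described here encode calcineurin, the NFAT transcription factors and RCAN1, the feedback inhibitor of calcineurin. They were chosen by name: the catalytic subunits Ppp3ca, Ppp3cb and Ppp3cc, the regulatory subunit Ppp3r1, the factors Nfatc1, Nfatc2, Nfatc3 and Nfat5, and the inhibitor Rcan1. These are 9 of the 47643 genes in the count table, and all 9 were among the 11560 genes with enough counts to be tested.

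RNA was sequenced from bone marrow-derived mast cells (BMMCs), primary cells grown from C57BL/6 marrow for at least 4 weeks in medium conditioned by WEHI-3 cells. The 3 groups held 3 libraries each. Control cells were untreated, IgE+BSA cells were sensitized with IgE against DNP and challenged with DNP-BSA, and IgE+BSA+Luteolin cells also received luteolin, a plant flavone, at 10 µM for 24 h by the labels. Whether luteolin came before or after the antigen is not clear from the sources, the labels give the luteolin protocol for every library, and the time between antigen and harvest for these libraries is not given in the sources used here. The labels name no altered genotype in any group. The labels do not say whether libraries of a group came from separate mice or cultures, so the p-values measure the spread between these libraries, which may be technical.

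In a mast cell, antigen that crosslinks IgE on its receptor raises intracellular calcium, and calcium with calmodulin switches on calcineurin, a serine/threonine phosphatase built of a catalytic and a regulatory subunit. Calcineurin strips phosphates from the NFATc proteins, which then enter the nucleus and, often beside AP-1, turn on cytokine genes. Cyclosporin A and tacrolimus block this step, and RCAN1, itself a product of an NFAT target gene, binds calcineurin and restrains it. NFAT5 shares the DNA-binding fold but lacks the calcineurin docking region and is known for its response to osmotic stress.

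Rcan1 lies on the minus strand of chromosome 16 (GRCm38, 92391953 to 92470867), and the RefSeq table of the GRCm38.p6 build lists 2 starts for it that are 66091 bases apart. The 250 bases before each start are shown because Rcan1 carried the largest change of the 9 genes and because a downstream start of this gene is known to answer to calcineurin and NFAT. Capitals mark exact matches on either strand to GGAAA, the core that NFAT proteins bind, to TGANTCA, the AP-1 element, and to TGACGTCA, the cyclic AMP response element. The upstream window is chr16:92466170-92466419 and the downstream window is chr16:92400079-92400328, both on the minus strand and written 5′ to 3′ along the gene.
Rcan1 upstream start: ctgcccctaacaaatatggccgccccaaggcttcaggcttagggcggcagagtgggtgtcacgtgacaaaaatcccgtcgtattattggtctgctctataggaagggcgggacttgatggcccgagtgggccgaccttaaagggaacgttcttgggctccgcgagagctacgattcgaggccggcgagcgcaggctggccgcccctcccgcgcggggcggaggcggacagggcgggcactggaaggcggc
Rcan1 downstream start: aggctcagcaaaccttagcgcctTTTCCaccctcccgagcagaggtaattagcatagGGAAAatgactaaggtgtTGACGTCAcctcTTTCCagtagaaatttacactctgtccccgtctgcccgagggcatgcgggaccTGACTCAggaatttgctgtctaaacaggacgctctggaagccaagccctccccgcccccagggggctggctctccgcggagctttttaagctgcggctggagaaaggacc

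The upstream window held 0 matches to the 3 motifs. The downstream window held 3 NFAT cores, beginning 227, 193 and 163 bases before the start, with an AP-1 element at 110 bases and a cyclic AMP response element at 175 bases, none of which overlapped another. Of the 32851 mouse promoters of the same length in the table, 55.57% held at least 1 NFAT core and 6.39% held at least 3. An AP-1 element was found in 6.75% of them and a cyclic AMP response element in 1.55%, and 10 promoters (0.03%) held all 3 kinds. A match is a stretch of letters and not a measured binding site. The counts are per gene, so transcripts from the 2 starts cannot be told apart in these data.

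The table held 9 promoters for 6 of the 9 genes. Ppp3cb, which encodes the beta catalytic subunit, had 3 NFAT cores in its window. In Nfatc2 there were 3 before 1 start and 1 before the other. Nfat5 had 2, Nfatc3 had 1 before its first start and 0 before its second, and Ppp3r1 had 0. Outside Rcan1, 0 of these windows held an AP-1 or a cyclic AMP response element.

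Total counts were 9515004 in Control replicate 2 and 20125034 to 24605689 in the other 8 libraries. Levels below are CPM, that is counts scaled to a common library size with TMM factors, which correct for the make-up of each library, and a level of 3 counts was 0.122 to 0.291 CPM. Mast cell markers were high in every library, and the sum of 8 markers was 57340 to 64210 CPM in IgE+BSA and 68970 to 79970 CPM with luteolin, without overlap. Of the 8, 5 (Fcer1a, Ms4a2, Cpa3, Cma1 and Tpsb2) were higher with luteolin in every library, Kit (2142 to 2170 against 1966 to 2024 CPM) and Hdc (716.8 to 967.9 against 360.3 to 390.5 CPM) were lower, and Gata2 overlapped. In Control this sum was 81760 CPM in replicate 1 and 54210 and 54480 CPM in replicates 2 and 3. Control replicate 1 and Control replicates 2 and 3 stood apart from each other, and which of them were unusual was not tested. The counts of Control replicate 1 differed from those of Control replicates 2 and 3 by a chi-square of 82.1 and 130.9 per degree of freedom, against 6.14 between those replicates and 3.93 to 14.2 within the other groups. The sum of 5 neutrophil markers was 189.6 CPM in Control replicate 1, 6.99 and 5.66 CPM in Control replicates 2 and 3, 125.0 to 136.4 CPM in IgE+BSA and 146.1 to 172.2 CPM with luteolin. In this sum Control replicates 2 and 3 lay furthest from the treated libraries. The 3 basophil markers summed to 1655 to 1882 CPM in Control, 1449 to 1507 CPM in IgE+BSA and 1612 to 1757 CPM with luteolin. Of these Mcpt8 had 432.4 CPM in Control replicate 1 and 18.75 and 21.83 CPM in the other Controls, with 292.7 to 368.6 CPM in the treated libraries, while Prss34 (513.9 to 760.3 CPM over all libraries) and Cd200r3 (617.0 to 1047 CPM) did not share that order. The sum of 5 macrophage markers was lower in Control, at 216.2 to 230.1 CPM, than in IgE+BSA (255.5 to 278.5 CPM) and luteolin (261.9 to 284.7 CPM), without overlap. Most of it was Adgre1, at 202.8 to 206.0 CPM in Control and 223.8 to 259.6 CPM in the treated libraries, while Csf1r overlapped between groups, Cd14 with luteolin lay inside its Control range, and Mrc1 and C1qa were at or near 0. The 4 eosinophil markers summed to 55.3 CPM in Control replicate 1, 35.8 and 24.9 CPM in the other Controls and 41.4 to 50.4 CPM in the treated libraries. T cell markers summed to at most 0.485 CPM, with Cd3e and Cd8a at 0 counts, and B cell markers to at most 0.776 CPM, with Ms4a1 at 0 counts. Fold changes against Control use all 3 Control libraries, and for the 9 genes and the named targets of the calcium-regulated NFATs it is also said where leaving out Control replicate 1, or using it alone, changed a call. The part of these marker levels in the results was not tested, and in bulk RNA fewer cells of a type and less RNA per cell cannot be told apart.

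Rcan1 (ENSMUSG00000022951) rose with antigen, and its levels with luteolin overlapped those in Control. It measured 20.0, 21.5 and 21.1 CPM in Control replicates 1, 2 and 3, then 225.4, 207.1 and 208.7 CPM in IgE+BSA, and 19.7, 20.1 and 22.1 CPM in IgE+BSA+Luteolin. The 3 IgE+BSA libraries lay far above the other 6, which overlapped each other. Stimulation raised Rcan1 10.2-fold (log2 fold change 3.35, 95% interval 3.11 to 3.60, edgeR adjusted p = 3.86e-05), the 15th largest increase among the 11560 genes. Luteolin lowered it 10.3-fold relative to IgE+BSA (log2 fold change -3.37, 95% interval -3.52 to -3.23, adjusted p = 5.75e-16), the 27th largest decrease. Against Control, the luteolin libraries differed by -0.02 on the log2 scale with a 95% interval from -0.30 to 0.25 (adjusted p = 0.916).

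**Figure D1:**
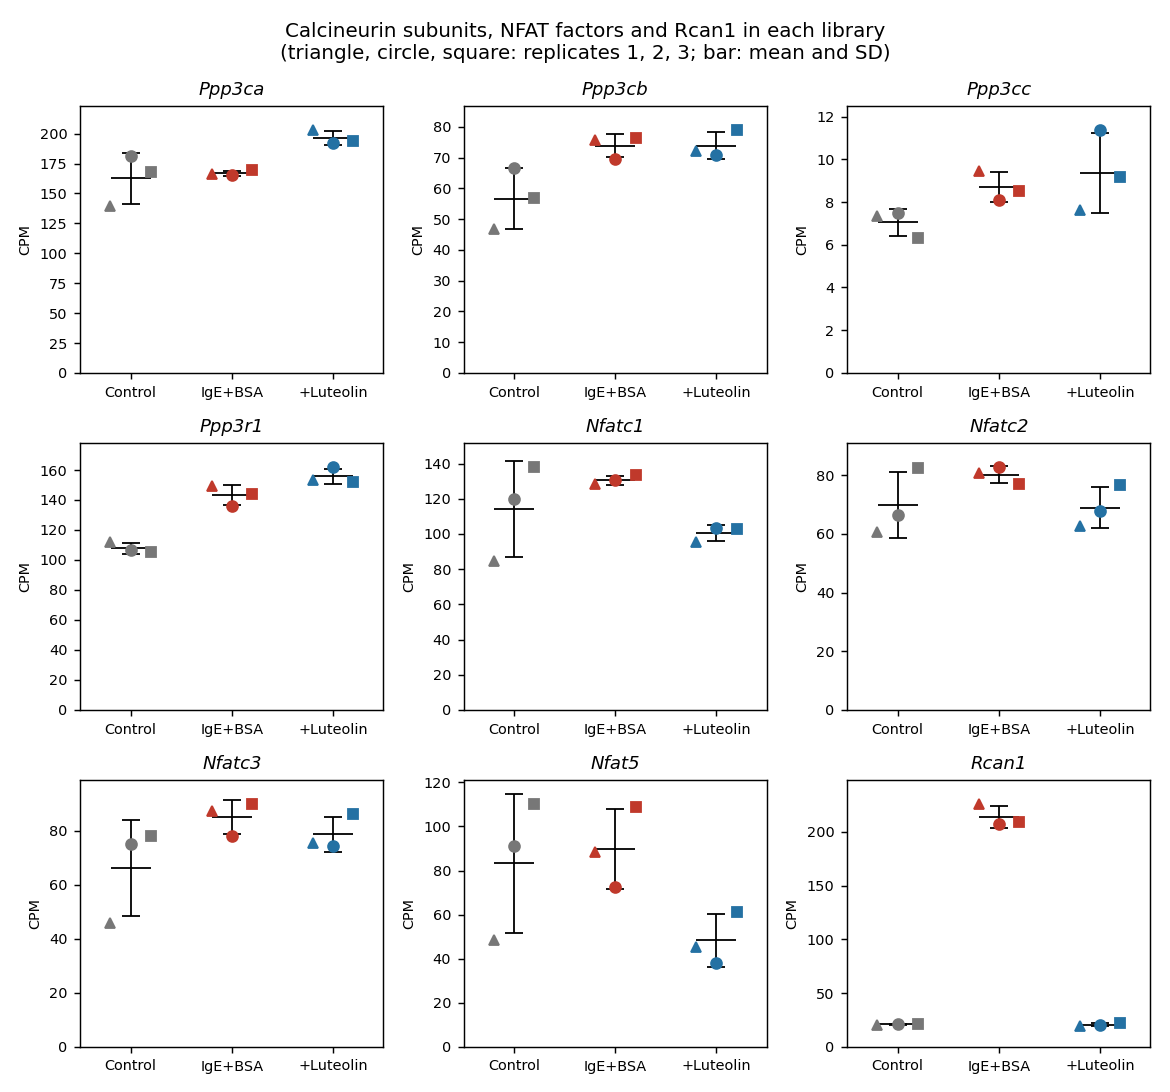
Level of each gene in CPM (linear axis from 0) in the 3 libraries of Control, IgE+BSA and IgE+BSA+Luteolin, with the mean and SD as bars and one symbol per replicate number. Rcan1 lies at 207.1 to 225.4 CPM in IgE+BSA and at 19.7 to 22.1 CPM in the other 6 libraries, and Control replicate 1, the grey triangle, is the lowest Control for 7 of the 9 genes.

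The Rcan1 calls did not depend on the Control libraries used. The increase with antigen was 3.28 on the log2 scale without Control replicate 1 and 3.40 against that library alone. Over all 19 alternative settings the increase ranged from 3.18 to 3.40, and the decrease with luteolin from -3.46 to -3.26 over 18 settings. All of these passed the threshold. Control replicate 1, which held the highest neutrophil marker sum, had 93.9% of the mean Rcan1 level of the other Controls.

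Of the 4 calcineurin subunits, 0 passed edgeR's test between IgE+BSA and Control, while 2, Ppp3cb and Ppp3r1, had an unadjusted p under 0.05 and DESeq2 called 1, Ppp3r1. Over all genes edgeR called 3.27% and DESeq2 10.6% in this comparison. Ppp3r1 (ENSMUSG00000033953, chromosome 11), the calcium-binding regulatory subunit known as calcineurin B, measured 112.0, 106.8 and 105.0 CPM in Control, 149.2, 136.0 and 144.0 CPM in IgE+BSA, and 153.5, 161.7 and 152.3 CPM with luteolin. The 3 ranges did not overlap, in the order Control, IgE+BSA, luteolin. The step from Control to IgE+BSA was 0.40 on the log2 scale (95% interval 0.18 to 0.63, edgeR adjusted p = 0.0786), and it passed the threshold without Control replicate 1 (0.39, adjusted p = 0.000451) and against that library alone (0.34, adjusted p = 0.00806). The step from IgE+BSA to luteolin was 0.13 (edgeR adjusted p = 0.0872). Over 18 alternative settings this step ranged from 0.04 to 0.24, and 3 of them called it.

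Between luteolin and Control, Ppp3r1 rose by 0.53 on the log2 scale (95% interval 0.31 to 0.74, adjusted p = 0.0352), which is 1.44-fold. This call was lost when any library other than Control replicate 1 was left out, with adjusted p between 0.142 and 0.227, although the fold change stayed between 0.50 and 0.55. Ppp3r1 shares 462 exon bases on the same strand with Wdr92, and how reads there were assigned is not given in the sources used here. Wdr92 measured 14.8 ± 0.841 CPM in Control, 13.3 ± 1.51 CPM in IgE+BSA and 16.4 ± 0.819 CPM with luteolin (SD, n = 3). Wdr92 was called higher with luteolin than in IgE+BSA (0.31, edgeR adjusted p = 0.0405), the direction of the Ppp3r1 step, and was not called against Control (0.14, adjusted p = 0.491). The part of these shared bases in the Ppp3r1 values was not tested.

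Ppp3ca (ENSMUSG00000028161, chromosome 3) encodes the alpha catalytic subunit. Its level was 139.4, 180.9 and 168.1 CPM in Control, 166.1, 165.1 and 169.3 CPM in IgE+BSA, and 202.6, 192.3 and 193.5 CPM in the luteolin libraries. All 3 luteolin libraries exceeded the other 6, while the IgE+BSA values fell inside the Control range. Luteolin raised Ppp3ca by 0.24 on the log2 scale relative to IgE+BSA (95% interval 0.12 to 0.35, edgeR adjusted p = 0.00232), or 1.18-fold. Stimulation alone gave 0.04 (adjusted p = 0.899), and luteolin against Control gave 0.27 (adjusted p = 0.251). Without Control replicate 1 these were -0.11 (adjusted p = 0.194) and 0.16 (adjusted p = 0.0503), and against that library alone 0.24 (adjusted p = 0.0285) and 0.49 (adjusted p = 0.000823).

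Ppp3cb (ENSMUSG00000021816, chromosome 14), the beta catalytic subunit, stood at 46.7, 66.6 and 56.7 CPM in Control, 75.5, 69.5 and 76.5 CPM in IgE+BSA and 72.1, 70.7 and 78.8 CPM with luteolin. Both stimulated groups lay above all Controls and overlapped each other. Its differences from Control were 0.38 in IgE+BSA (adjusted p = 0.184) and 0.38 with luteolin (adjusted p = 0.193), and without Control replicate 1 they were 0.22 (adjusted p = 0.0472) and 0.26 (adjusted p = 0.0160). Against that library alone they were 0.64 (adjusted p = 0.000296) and 0.66 (adjusted p = 0.000389). Luteolin and IgE+BSA differed by 0.00 with a 95% interval from -0.14 to 0.14.

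Ppp3cc (ENSMUSG00000022092, chromosome 14), the gamma catalytic subunit, was the lowest of the catalytic genes. It had 77 to 280 counts per library, or 6.32 to 7.47 CPM in Control, 8.11 to 9.46 CPM in IgE+BSA and 7.61 to 11.3 CPM with luteolin. Its log2 differences of 0.30, 0.11 and 0.41 for IgE+BSA against Control, luteolin against IgE+BSA and luteolin against Control did not pass the test (adjusted p = 0.349, 0.585 and 0.259), and the last did without Control replicate 1 (0.46, adjusted p = 0.0465). It shares 91 exon bases with Gm49417 on the opposite strand, which was not analysed here.

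The make-up of the catalytic pool was described as each gene's share of their summed level per kilobase of exon. Ppp3ca held 64.95% ± 1.17 of this level in Control, 59.7% ± 1.16 in IgE+BSA and 63.0% ± 2.05 with luteolin (SD, n = 3). Ppp3cb held 25.5% ± 1.22, 29.9% ± 0.745 and 26.9% ± 1.40, and Ppp3cc held the remaining 9.52%, 10.4% and 10.1%. These shares depend on the length used: with the mean transcript length Ppp3ca held 74.3%, 69.5% and 72.7%, and Ppp3cc 2.755%, 3.06% and 2.94%. The Ppp3ca share in IgE+BSA differed from that in Control by -5.26 percentage points, the share with luteolin differed from that in IgE+BSA by 3.34 points, and neither pair of groups overlapped. An exact two-sided permutation test gave p = 0.1 for both, the smallest that 3 libraries against 3 can give.

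Among the calcium-regulated factors, Nfatc1 and Nfatc2 were lower with luteolin than in IgE+BSA and Nfatc3 did not pass the test. Nfatc1 (ENSMUSG00000033016, chromosome 18), a factor whose own gene is known to be induced through NFAT in lymphocytes, measured 84.4, 119.9 and 137.8 CPM in Control, 128.2, 130.4 and 133.3 CPM in IgE+BSA, and 95.6, 103.5 and 102.7 CPM with luteolin. The luteolin libraries lay below the IgE+BSA libraries, and the Control values spanned both groups. Luteolin lowered Nfatc1 1.30-fold relative to IgE+BSA (log2 fold change -0.37, 95% interval -0.49 to -0.25, edgeR adjusted p = 7.57e-05). IgE+BSA against Control gave 0.20 with all Controls (adjusted p = 0.577), -0.03 without Control replicate 1 and 0.61 against that library alone (adjusted p = 0.000164). Luteolin against Control gave -0.19 (adjusted p = 0.537), -0.37 (adjusted p = 0.000466) and 0.25 (adjusted p = 0.0582) in the same order.

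Nfatc2 (ENSMUSG00000027544, chromosome 2), known for its part in T cell and mast cell cytokine transcription, gave 60.7, 66.5 and 82.5 CPM in Control, 80.8, 82.7 and 76.99 CPM in IgE+BSA, and 62.7, 67.8 and 76.6 CPM in the luteolin group. The highest luteolin library fell just short of the lowest IgE+BSA library. The log2 fold change of -0.21 (95% interval -0.37 to -0.06, adjusted p = 0.0274) was lost in 10 of 18 alternatives. It was -0.10 with library size as the scaling (adjusted p = 0.292) and -0.05 after a correction for gene length (adjusted p = 0.578). It also did not pass the test without IgE+BSA replicate 1 or 2 or luteolin replicate 1 or 2, with values from -0.21 to -0.15. IgE+BSA against Control gave 0.20 (adjusted p = 0.461), 0.05 without Control replicate 1 (adjusted p = 0.703) and 0.38 against that library alone (adjusted p = 0.00520), and luteolin against Control gave -0.02, -0.13 and 0.18 in the same order, none past the threshold.

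For Nfatc3 (ENSMUSG00000031902, chromosome 8), the Control libraries gave 45.7, 74.9 and 78.0 CPM, the IgE+BSA libraries 87.4, 78.1 and 89.7 CPM, and the luteolin libraries 75.6, 74.3 and 86.1 CPM. IgE+BSA lay above Control, by the small gap between 78.04 and 78.08 CPM, and overlapped the luteolin group. The fold changes of 0.36 for stimulation (adjusted p = 0.355), -0.11 for luteolin against IgE+BSA (adjusted p = 0.229) and 0.24 for luteolin against Control (adjusted p = 0.485) did not pass the test. The value for luteolin against IgE+BSA turned to 0.08 after the length correction and was -0.18 (adjusted p = 0.0405) without luteolin replicate 3. Against Control replicate 1 alone, which had 59.7% of the Nfatc3 level of the other Controls, stimulation gave 0.88 (adjusted p = 5.89e-05) and luteolin 0.78 (adjusted p = 0.000149), and without that library they gave 0.10 (adjusted p = 0.296) and 0.03 (adjusted p = 0.771). Its exons share 219 bases with Esrp2 on the opposite strand, a gene with a mean of at most 0.0924 CPM in any group.

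Nfatc1 made up the largest share of the 3 factors per kilobase of exon, with 55.3% ± 1.16 in Control, 54.1% ± 0.788 in IgE+BSA and 50.5% ± 1.81 with luteolin (SD, n = 3). The share of Nfatc3 was 20.4% ± 1.82, 22.4% ± 1.38 and 25.1% ± 1.15, and that of Nfatc2 was 24.3%, 23.5% and 24.4%. With the mean transcript length Nfatc1 held 42.2%, 40.8% and 37.25% and Nfatc3 30.3%, 32.97% and 36.1%, overlapping each other with luteolin. Between luteolin and IgE+BSA the Nfatc1 share differed by -3.62 percentage points and the Nfatc3 share by 2.67 points, without overlap (exact permutation p = 0.1 for both, the smallest possible).

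Nfat5 (ENSMUSG00000003847, chromosome 8) had the largest called change after Rcan1. Its level was 48.6, 91.2 and 110.0 CPM in Control, 88.4, 72.6 and 108.8 CPM in IgE+BSA, and 45.4, 38.1 and 61.4 CPM in IgE+BSA+Luteolin. Every luteolin library lay below every IgE+BSA library, whereas the Control values reached from the luteolin range to the top of the IgE+BSA range. Luteolin lowered Nfat5 1.86-fold relative to IgE+BSA (log2 fold change -0.90, 95% interval -1.20 to -0.60, edgeR adjusted p = 0.000115), and the value after correction for gene length was -0.62 (adjusted p = 0.000340).

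The comparison of Nfat5 with Control depended on which Control libraries were used. Luteolin against Control gave -0.79 with all 3 (95% interval -1.52 to -0.06, adjusted p = 0.194), -1.08 without Control replicate 1 (adjusted p = 3.68e-06) and -0.02 against that library alone (adjusted p = 0.964). IgE+BSA against Control gave 0.11 (adjusted p = 0.875), -0.22 (adjusted p = 0.182) and 0.87 (adjusted p = 0.00162) in the same order. Control replicate 1 held 48.3% of the Nfat5 level of the other Controls.

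**Figure D2:**
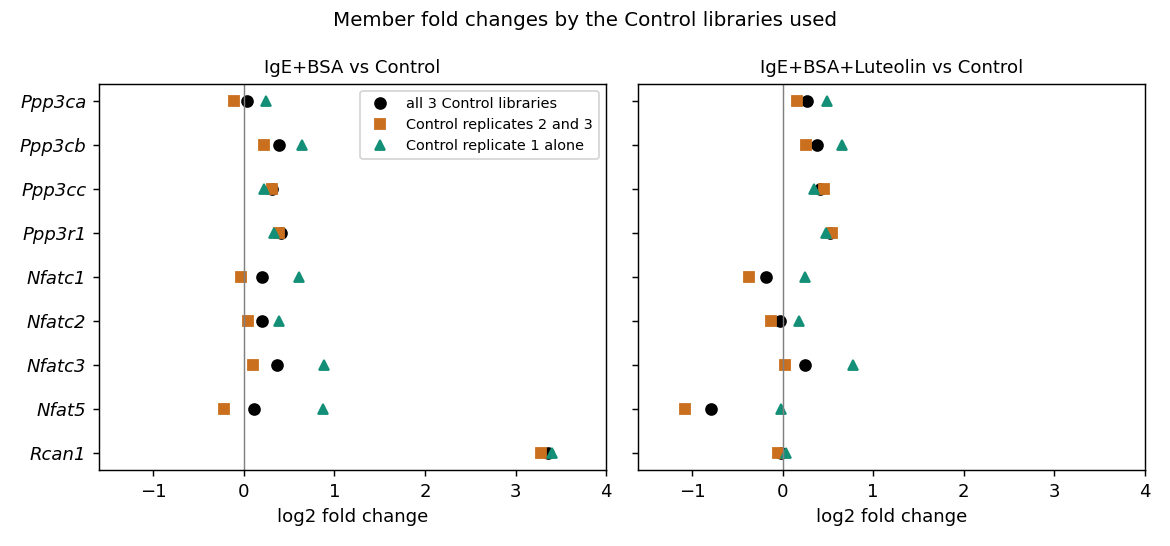
Log2 fold change of each gene in IgE+BSA (left) and IgE+BSA+Luteolin (right) against all 3 Control libraries (circles), Control replicates 2 and 3 (squares) or Control replicate 1 alone (triangles). The symbols nearly coincide for Rcan1, Ppp3r1 and Ppp3cc, and for Nfat5 they run from -0.22 to 0.87 on the left and from -1.08 to -0.02 on the right.

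Counted over the 9 genes, 1 was called between IgE+BSA and Control, where 3.27% of all genes tested were called, 2.25% higher and 1.02% lower. In luteolin against IgE+BSA, 5 were called, with Rcan1, Nfat5, Nfatc1 and Nfatc2 lower and Ppp3ca higher, in a comparison where 40.0% of all genes were called, 21.9% lower and 18.1% higher. Against Control, luteolin gave 1 call, Ppp3r1, where 3.04% of all genes were called, 0.285% higher and 2.75% lower. With all 9 libraries in 1 fit, whose spread includes that of Control, Rcan1 was the 1 call left in luteolin against IgE+BSA. The adjusted p was then 0.0877 for Nfat5, 0.169 for Nfatc1, 0.198 for Ppp3ca and 0.325 for Nfatc2. The median log2 fold change of the 9 genes was 0.30, -0.11 and 0.24 in the 3 comparisons, against 0.02, 0.02 and 0.01 over all genes tested.

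The libraries of the groups compared did not overlap for 5, 6 and 4 of the 9 genes, where 28.7%, 50.3% and 28.5% of all genes did not. The comparisons share libraries, so their values are given side by side and not as independent evidence. Without Control replicate 1, 3 of the 9 genes were called in IgE+BSA against Control and 5 in luteolin against Control, where 44.9% and 60.0% of all genes were called. With that library as the only control, which assumes that it varies like the others, 8 and 4 were called, beside 42.5% and 21.4% of all genes.

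**Figure D3:**
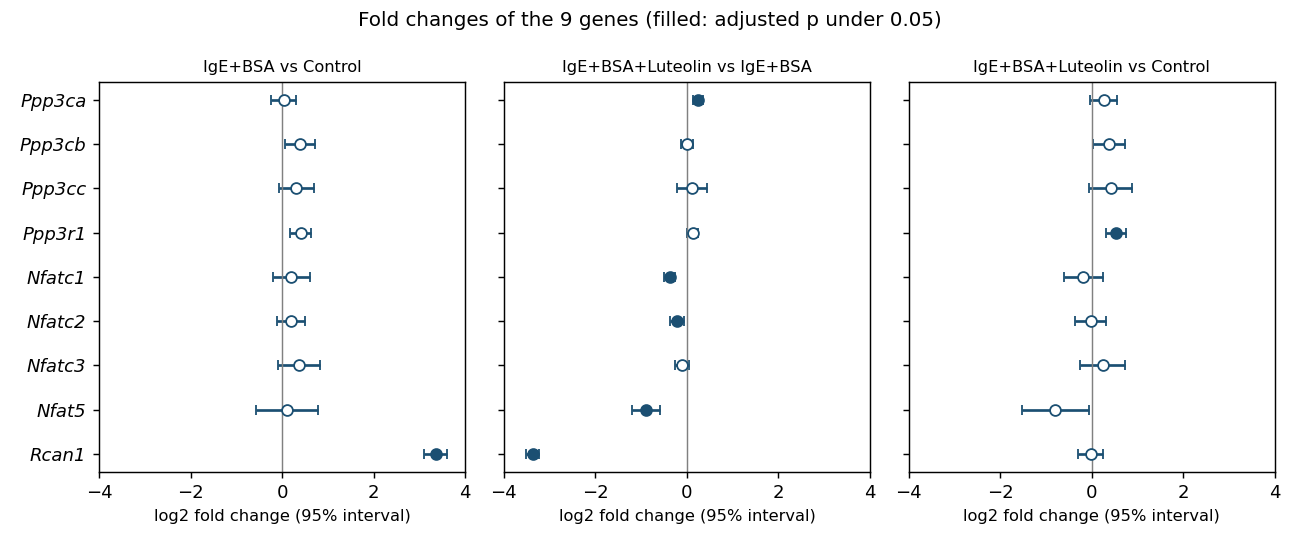
Log2 fold change with its 95% interval for the 9 genes in the 3 comparisons, filled where the edgeR adjusted p is under 0.05. Rcan1 sits at 3.35, -3.37 and -0.02, and the other 8 genes stay between -0.90 and 0.53 in all 3 panels.

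Rcan1 moved most in the order of levels per kilobase of exon. In Control this order began with Ppp3r1 at 33.4 ± 1.12 CPM per kilobase, followed by Ppp3ca at 16.3 ± 2.13 and Nfatc1 at 15.3 ± 3.64, which overlapped (SD, n = 3). Rcan1, Nfatc2, Ppp3cb, Nfatc3 and Nfat5 came next, from 6.78 down to 4.53, each overlapping its neighbour, and Ppp3cc was last at 2.36 ± 0.213. In IgE+BSA, Rcan1 stood first at 69.3 ± 3.28 CPM per kilobase, above Ppp3r1 at 44.3 ± 2.05, Nfatc1 at 17.5 ± 0.346 and Ppp3ca at 16.7 ± 0.220, with no overlap between these neighbours. With luteolin, Rcan1 stood at rank 6 with 6.69 ± 0.412, between Nfatc3 and Nfatc2 and overlapping both. Nfat5 became the lowest at 2.63 ± 0.648, overlapping Ppp3cc. The ranks depend on the length used: with the mean transcript length, Ppp3ca came first in Control and with luteolin, and Rcan1 kept the first rank in IgE+BSA.

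Other genes of the pathway were taken from lists of 55 genes, of which 41 passed the filter on low counts. Of the 41, 7 were higher and 0 were lower in IgE+BSA than in Control, where 3.27% of all genes tested were called. In luteolin against IgE+BSA 20 were lower and 3 higher (40.0% of all genes called), and in luteolin against Control 1 was lower and 1 higher (3.04% called). The split of 20 and 3 depended on the scaling: it was 18 and 11 with upper-quartile factors and 14 and 14 with library size alone. With all 9 libraries in 1 fit it was 10 and 0, where 9.46% of all genes were called, and the 10 were Tnf, Egr2, Egr3, Il13, Csf2, Ptgs2, Il4, Slc38a2, Hspa4l and Mef2d. Without Control replicate 1, 21 were called with antigen and 29 in luteolin against Control (44.9% and 60.0% of all genes), and with that library alone as the control 26 and 15 were (42.5% and 21.4%). The 14 genes that did not pass included the second inhibitor Rcan2 and the testis form of the regulatory subunit Ppp3r2, both at 0 counts in all 9 libraries, and Nfatc4 with 70 counts in all. Il2 and Il5, cytokine genes under NFAT control in T cells, had 24 and 19 counts over the 9 libraries.

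Of 12 listed target genes of the calcium-regulated NFATs, 8 were tested, and Il2, Il5, Fasl and Cd40lg had too few counts. The list was chosen with earlier results of these data known. The counts below therefore describe the listed genes and are no test of NFAT targets. Of the 8 tested, edgeR called 7 higher with antigen, where 2.25% of all genes were. It called 7 lower with luteolin than in IgE+BSA, where 21.9% of all genes were. The median log2 fold change over the 8 was 3.92 and -3.00. Csf2 and Il3 had at most 3 counts each in Control replicates 2 and 3 and passed the filter through the treated libraries. The filter itself thus favoured a rise of Csf2 and Il3 with antigen. Tnf, the mast cell cytokine, had 21.8, 12.0 and 10.7 CPM in Control, 766.2, 801.9 and 711.8 CPM in IgE+BSA and 41.7, 37.6 and 46.5 CPM with luteolin. The 3 groups did not overlap, and the luteolin group lay above Control (log2 fold change 1.49, adjusted p = 0.0374). The call against Control was lost when any library other than Control replicate 1 was left out (edgeR adjusted p between 0.117 and 0.178), and the Tnf value was 1.90 without that library and 0.94 against it alone. Luteolin against IgE+BSA gave -4.18 (adjusted p = 3.72e-16), and antigen raised Tnf by 6.04 without Control replicate 1 and by 5.11 against it alone.

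Egr2 and Egr3, zinc-finger factors induced downstream of NFAT, were highest in IgE+BSA. Egr2 measured 63.7 to 81.8 CPM in Control, 1085 to 1176 CPM in IgE+BSA and 43.1 to 49.3 CPM with luteolin. It rose by 3.98 with antigen (adjusted p = 4.88e-05), and the luteolin group was lower than both IgE+BSA (-4.62, adjusted p = 3.14e-17) and Control (-0.65, adjusted p = 0.0480). The Egr2 call against Control was lost with limma (adjusted p = 0.0502), with edgeR's filterByExpr (0.0530) and when any library other than Control replicate 1 was left out (0.107 to 0.261). Egr3 gave 2.52, -4.08 and -1.56 in the same 3 comparisons, the last with adjusted p = 0.0568. Luteolin against Control gave -0.53 for Egr2 and -1.82 for Egr3 without Control replicate 1, and -0.85 and -0.86 against that library alone, all past the threshold. With antigen the values were 4.05 and 2.22, then 3.76 and 3.20.

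The cytokine genes Il13 and Csf2 and the prostaglandin synthase gene Ptgs2 differed within Control. Il13 had 73.9 CPM in Control replicate 1 and 28.9 and 25.4 CPM in the others, against 565.6 to 599.3 CPM in IgE+BSA and 114.0 to 135.6 CPM with luteolin. Csf2 had 88 counts in Control replicate 1 and 1 and 3 counts in the others, with 56.2 to 60.0 CPM in IgE+BSA and 3.73 to 4.45 CPM with luteolin. Ptgs2 ranged from 11.5 to 34.8 CPM in Control, 258.3 to 316.0 CPM in IgE+BSA and 74.8 to 79.9 CPM with luteolin. Control replicate 1 was the highest Control for all 3 genes.

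These 3 genes rose with antigen (log2 fold changes 3.75, 5.14 and 3.85, edgeR adjusted p = 0.00515, 0.0334 and 0.00627) and fell with luteolin (-2.18, -3.81 and -1.88). The Csf2 call with antigen was lost when any library other than Control replicate 1 was left out (adjusted p between 0.0628 and 0.159). Without Control replicate 1 the increase was 4.39 for Il13 and 4.56 for Ptgs2, and no fold is given for Csf2 because the Controls left had 1 and 3 counts. Against that library alone the values were 2.96 for Il13, 3.74 for Csf2 and 3.01 for Ptgs2, all past the threshold. In luteolin against Control edgeR called none of these 3 with all Controls, while DESeq2 called Il13 and Ptgs2. Without Control replicate 1 edgeR called all 3 higher. Against that library alone the values were 0.79 for Il13, 1.14 for Ptgs2 and -0.05 for Csf2.

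Il4, the type 2 cytokine, rose by 1.78 (edgeR adjusted p = 0.00117), by 1.86 without Control replicate 1 and by 1.58 against it alone, and then differed by -2.02 with luteolin (adjusted p = 4.80e-13). For Il4, luteolin against Control gave -0.25 with overlapping libraries (adjusted p = 0.330), -0.13 without Control replicate 1 (adjusted p = 0.321) and -0.43 against it alone (adjusted p = 0.0202). Il3, named after its values were seen because edgeR did not call it in any comparison with all Controls, had 0 counts in Control replicates 2 and 3 and 7 in replicate 1, and had 32 to 66 counts in IgE+BSA and 33 to 46 counts with luteolin. It passed the filter through the treated libraries. DESeq2 and limma called Il3 higher in IgE+BSA than in Control, and no test against Control replicates 2 and 3 is given for Il3, because both are at 0. Luteolin and IgE+BSA differed by -0.28 (95% interval -0.98 to 0.43).

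**Figure D4:**
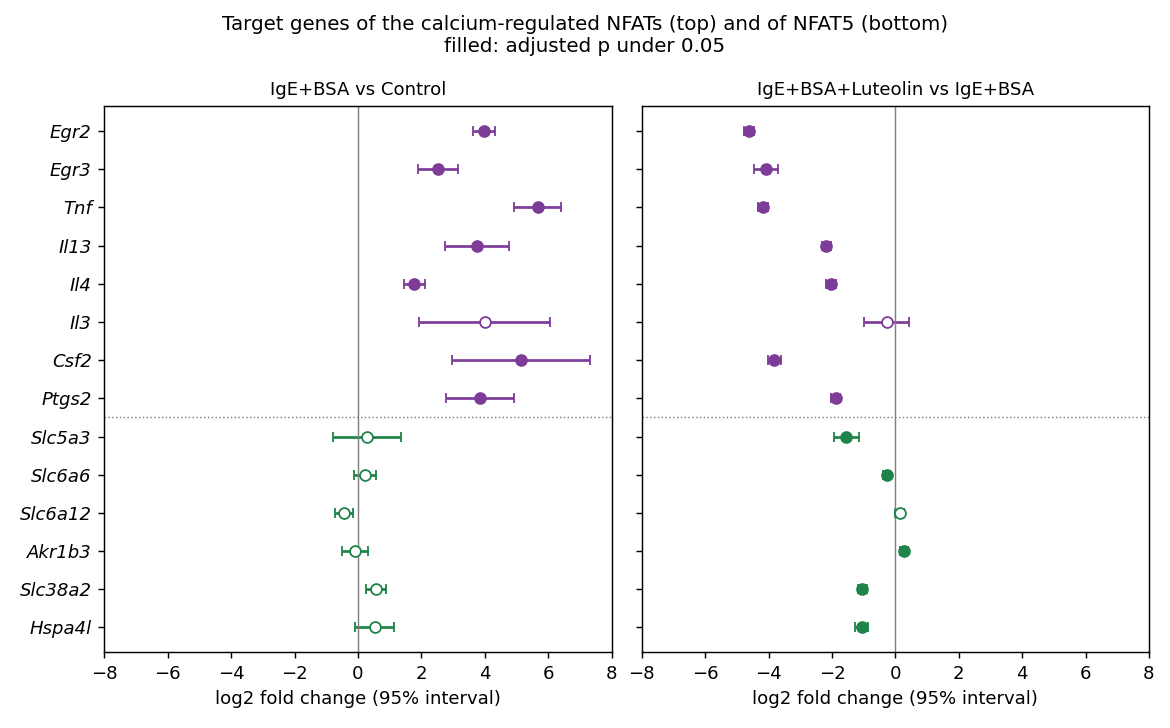
Log2 fold change with its 95% interval for 8 target genes of the calcium-regulated NFATs (purple, top) and 6 of NFAT5 (green, bottom), for IgE+BSA against Control and luteolin against IgE+BSA, filled where the edgeR adjusted p is under 0.05. Of the purple genes 7 are filled, right of 0 on the left and left of 0 on the right, and the green genes lie between -0.45 and 0.57 on the left and reach -1.54 on the right.

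Genes that NFAT5 is known to drive under osmotic stress were listed separately. All 6 were tested. With antigen edgeR called 0, 2 had an unadjusted p under 0.05 and DESeq2 called 2, Slc38a2 and Slc6a12, beside 3.27% of all genes by edgeR and 10.6% by DESeq2. Without Control replicate 1 edgeR called these same 2 genes and 44.9% of all genes, and against that library alone it called all 6 and 42.5% of all genes. With luteolin against IgE+BSA 4 fell and 1 rose, where 40.0% of all genes were called, with a median log2 fold change of -0.65. Slc5a3, the myo-inositol transporter, measured 13.0, 9.62 and 12.1 CPM in IgE+BSA and 2.94, 4.30 and 4.65 CPM with luteolin, a difference of -1.54 (edgeR adjusted p = 4.36e-06) that did not pass the threshold with all 9 libraries in 1 fit (adjusted p = 0.0539). In Control it had 3.27 CPM in replicate 1 and 12.5 and 13.1 CPM in the others. Control replicate 1 was the lowest Control for 5 of these 6 genes and the highest for Akr1b3.

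The amino acid transporter gene Slc38a2 and the chaperone gene Hspa4l fell by 1.04 and 1.06 on the log2 scale with luteolin (adjusted p = 8.74e-10 and 1.78e-07). Slc6a6, the taurine transporter, fell by 0.27, a call lost with all 9 libraries in 1 fit (adjusted p = 0.246). Akr1b3, which encodes the aldose reductase that makes sorbitol, rose by 0.28 (adjusted p = 0.00233), a call lost in the same way (adjusted p = 0.294), and Slc6a12, the betaine transporter, gave 0.13 (adjusted p = 0.0930). Whether NFAT5 acts on these genes in these cells was not tested.

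The kinases that return phosphates to NFAT, and factors that hold it in the cytoplasm, gave 0 edgeR calls among 11 tested genes with antigen, where 2 had an unadjusted p under 0.05 and DESeq2 called 1, Csnk1a1, beside 3.27% of all genes by edgeR and 10.6% by DESeq2. With luteolin against IgE+BSA, where 40.0% of all genes were called, 4 fell: Dyrk2 by 0.95 on the log2 scale (adjusted p = 0.000314), Csnk1a1 by 0.33 (adjusted p = 0.000221), Gsk3b by 0.27 and Dyrk1a by 0.25, the last named after its value was seen. Their list's median was 0.00. The inhibitors and anchors gave 3 calls of 4 tested, with Cabin1, a calcineurin-binding repressor, at -0.25, Chp1, a calcineurin B homologue, at -0.20 and Akap1, a mitochondrial anchor, at 0.27 (adjusted p = 0.0358). All 7 of these calls were lost with all 9 libraries in 1 fit, where Akap1 had an adjusted p of 0.452, and that of Akap1 was also lost without IgE+BSA replicate 1 or 2 or luteolin replicate 1 or 2 (0.0634 to 0.185).

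Of 5 calmodulin and immunophilin genes tested, edgeR called 1 in luteolin against IgE+BSA, where 40.0% of all genes were called. This was Fkbp1a, the binding protein of tacrolimus, which rose by 0.18 (edgeR adjusted p = 0.0398). DESeq2 did not call Fkbp1a (adjusted p = 0.0501) and called Calm3 of this list instead. Nor did edgeR call Fkbp1a with all 9 libraries in 1 fit (adjusted p = 0.451) or without IgE+BSA replicate 1 or 2 or luteolin replicate 1 or 2 (0.0903 to 0.229). Of 7 other calcineurin substrates tested, Mef2d, Mef2a and Crtc3 fell by 0.40, 0.34 and 0.20, where 40.0% of all genes were called, and the median of that list was -0.20. Mef2d alone of these 3 was called with all 9 libraries in 1 fit.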

How the data were processed

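The authors prepared stranded mRNA libraries, aligned the reads with STAR 2.7.0f to mm10 per the labels, and deposited raw counts per Ensembl gene. The annotation release, the strand setting and the handling of reads with several matches are not given in the sources used here. Of the gene IDs, 47224 matched a symbol in GENCODE (GRCm38) and 419 did not.

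Libraries were grouped by their labels. Genes with a median CPM above 1 in the 9 libraries were tested with edgeR 4.0.16 in R 4.3.3 (TMM factors, quasi-likelihood test, two-sided) separately for each pair of groups. P-values were adjusted by Benjamini and Hochberg over all genes tested, with a threshold of 0.05. Intervals are from the same fit. Levels per kilobase use the union of a gene's exons. The method was tested on simulated data with 200 of 11560 genes changed 2-fold. It recovered 50.5% of them for IgE+BSA against Control, 90% for luteolin against IgE+BSA and 54.5% for luteolin against Control, and 5.61%, 4.26% and 6.03% of the calls were false. The simulation drew each gene independently and held no library that differs over many genes, as Control replicate 1 does. Its rates may therefore not carry over to the comparisons with Control. No pair of replicates agreed within sampling noise. Total counts per library limit the precision, and the floor of 3 counts covers counting error only.

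The 9 genes, the pathway lists and the tests were chosen with earlier results of these data known. All 9 genes are named, as are, from the lists, genes called in luteolin against IgE+BSA with a log2 fold change of at least 1 in size and up to 3 per list with the smallest adjusted p, and the 5 genes most like Rcan1 and Nfatc1 in pattern. Alternatives covered DESeq2 1.42.0, limma 3.58.1, other scalings, filters and thresholds, all 9 libraries in 1 fit, a replicate block, a gene length correction, thinned libraries and each replicate left out. The use of Control replicate 1 alone was chosen after seeing the data.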

Additional observations from a re-analysis of the deposited data

How the results depend on the processing

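Over 9 genes, 3 comparisons and their alternatives, 504 fold changes were set against those reported. The alternative of adjusted p under 0.01 used the reported fold changes, and the others were recomputed. Of the 504, 462 kept their side of the threshold, 20 lost it and 22 gained it. Among called values 0 turned sign, while some uncalled values did. The calls of Rcan1 were among those kept. In IgE+BSA against Control, 2 of the 9 genes and 12 pathway genes were called with DESeq2 and again 2 and 12 with all 9 libraries in 1 fit, against 1 and 7 as reported, while the share of all genes called went from 3.27% to 10.6% and 9.56%, and leaving out 1 library gave 1 to 3 and 6 to 21. Control replicate 1 alone gave 8 and 26. In luteolin against IgE+BSA, the fit of all 9 libraries called 1 of the 9 genes, Rcan1, and 10 pathway genes, against 5 and 23, with a range of 4 to 6 and 18 to 30 when 1 library was left out. In luteolin against Control, 1 of the 9 genes and 2 pathway genes were called as reported. The pathway count was 8 with DESeq2, 6 without a filter, 1 with filterByExpr, 8 with all 9 libraries, 7 with the length correction and 5 with thinned libraries, and at adjusted p under 0.01 both counts were 0. Leaving out 1 library gave 0 to 5 of the 9 genes and 0 to 29 pathway genes, the highest without Control replicate 1, and that library alone gave 4 and 15. The cause was not tested. Whether replicate numbers pair the libraries was not settled, since deviations from a mean of 3 libraries constrain each other. Same-numbered deviations correlated between -0.26 and 0.31. Their mean was -0.02, 0.14 and 0.12 for IgE+BSA against Control, luteolin against IgE+BSA and luteolin against Control. Different numbers gave 0.01, -0.07 and -0.07. A fit with replicate block gave for the 9 genes 1, 6 and 0 calls and for the pathway lists 7, 30 and 4. The share of all genes called was then 1.25%, 48.3% and 1.83%. This fit lost the call of Ppp3r1 against Control (adjusted p = 0.0890) and called it against IgE+BSA (0.0344). The share of calls that were lower in luteolin against IgE+BSA was 54.6%, 38.2% with upper-quartile factors and 31.4% with library size, where the median of all genes moved to 0.13. In IgE+BSA against Control it was 31.2%, 47.6% with upper-quartile factors and 63.0% with library size, where that median was -0.15. The share differences of Ppp3ca (2.15 to 3.98 points) and Nfatc1 (-4.42 to -2.64 points) moved by less than the spread between libraries. Depth limits Ppp3cc most.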

Other observations

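The genes whose pattern lay nearest to that of Rcan1 were found by the root mean square difference of centred log2 CPM over the 9 libraries. They were Map3k8, the kinase TPL2, at 0.26, Noct, a circadian NADP phosphatase, at 0.28, ENSMUSG00000029333 at 0.35, Map2k3os at 0.38 and Atf3, a stress-induced factor, at 0.41. Map3k8 averaged 29.6 CPM in Control, 231.0 CPM in IgE+BSA and 30.9 CPM with luteolin, so that it too stood near its Control level in the luteolin libraries. Noct averaged 11.5, 79.3 and 9.62 CPM in the 3 groups, and Atf3 averaged 16.5, 216.8 and 10.8 CPM.

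For Nfatc1 the nearest genes were Eef1a1, a translation elongation factor, Pik3r1, a regulatory subunit of phosphoinositide 3-kinase, Wnk1, Gpatch8 and Nup98, with differences of 0.049 to 0.057. Eef1a1 gave log2 fold changes of 0.16 in IgE+BSA against Control and -0.39 in luteolin against IgE+BSA, and Pik3r1 gave 0.17 and -0.35. Likeness here is a ranking over 9 libraries in which the group differences and Control replicate 1 are shared by all genes.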
